A study of Arabidopsis thaliana with 28 samples.

Results

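The windows described here are places in the Arabidopsis thaliana genome where both CHH and CG methylation were lost in plants without RNA polymerase V (Pol V). They were chosen among 158314 windows of 200 bp that the authors list as sites of RNA-directed DNA methylation (RdDM), out of 794311 windows that tile the genome every 150 bp and overlap their neighbours by 50 bp. A window was taken when its CHH methylation in nrpe1 was under 25% of a Col-0 level of at least 10%, and its CG methylation was under 25% in nrpe1 and at least 50% in Col-0. The rule left 818 windows, or 0.517% of the RdDM windows, in 606 separate regions. Of the RdDM windows, 123309 had all 4 methylation values, so 35005 could not be judged. The choice rests on measured methylation of nrpe1 and Col-0, so all methylation values of these windows are descriptions and were not tested.

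In RdDM, Pol V makes short non-coding transcripts to which ARGONAUTE4 (AGO4) and its small interfering RNAs are thought to bind, which brings the methyltransferase DRM2 to the site. CHH methylation, at cytosines followed by H (A, C or T) at both next positions, has to be re-established after each round of replication, and at RdDM sites it depends on this pathway. CG methylation is symmetric and is usually copied by MET1 with the help of VIM proteins, so it often persists where RdDM is lost.

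RNA bound by Pol V was measured by IPARE, in which RNA is immunoprecipitated through NRPE1, the catalytic subunit of Pol V, and the 5′ ends of the fragments are sequenced. Every library came from 18 day-old seedlings of ecotype Columbia grown in long days, and 24 libraries cover 11 genotypes. Mutants in Pol V itself or in its loading were nrpe1 (5 libraries), drd3-3 (2), whose gene DRD3 is known to encode the same subunit, dms5-1 (2), and drd1 and dms3 (1 each), which lack a chromatin remodeller and its partner that act with Pol V. The single libraries of suvh2, suvh9 and the double mutant suvh2/suvh9 lack SUVH2 and SUVH9, which bind methylated DNA and bring Pol V to it. The mutants ago4 (2) and spt5l (2) lack AGO4 and SPT5L, an elongation factor-like protein that binds both Pol V and AGO4, and Col-0 (6) is the wild type. The labels arrange the libraries in sets named gp2 to gp6 and a set with no tag, and do not say what a set is or whether replicates were separate plantings, so a p-value here covers only the variation from library to library, part of which may be technical. Methylation came from 3.5-week leaves of nrpe1 and Col-0 as the authors' averages without replicate values, so RNA and methylation were measured in different tissues and ages. In whole seedlings, fewer cells with a transcript and less transcript per cell cannot be told apart.

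Window counts summed to between 785943 (drd3-3 of gp5) and 6957714 (ago4 of gp2) per library, and levels are given as CPM, the count scaled to a total of 1000000. The Col-0 library of gp3 stood apart from the other 5 Col-0 libraries over the 818 windows. Across windows, the log2 levels of those 5 libraries correlated with each other at r = 0.81 to 0.94, while Col-0 gp3 correlated with them at 0.30 to 0.37 with the 2 ago4 libraries at 0.80 to 0.83 and with the 2 spt5l libraries at 0.67 to 0.68. These are descriptions over the same 818 windows, which share libraries and depth. Over the 6804 windows that lost CHH but kept CG methylation, Col-0 gp3 correlated with the other 5 at 0.67 to 0.78, with ago4 at 0.80 to 0.81 and with spt5l at 0.82 to 0.84. Results that rest on Col-0 gp3 are given with and without it, and what sets this library apart was not tested.

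Loss of CG methylation was uncommon among windows that lost CHH methylation. Of 48991 RdDM windows with at least 10% CHH methylation in Col-0, 9110 fell below 25% of that level in nrpe1, and 8236 of these had at least 50% CG methylation in Col-0. In nrpe1, 818 of the 8236 (9.93%) were under 25% CG and 614 (7.46%) lay between 25% and 50%. The other 6804 (82.6%) held at least 50% and are called the CG-kept windows below. The nearest windows on both sides of the rule had 10% inside and 9.96% outside for CHH in Col-0, 24.1% and 32.9% for CHH left in nrpe1, 50% and 49.9% for CG in Col-0, and 24.9% and 25% for CG in nrpe1.

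In the chosen windows CG methylation averaged 6.23% in nrpe1 and 73.5% in Col-0. No CG methylation at all was recorded in nrpe1 at 364 windows (44.5%), while 138 held some but less than 5%, 148 had 5% to 15% and 168 had 15% to 25%. CHG methylation, which the rule did not use but which comes from the same libraries, averaged 1.51% in nrpe1 (681 windows with a value) and 53.3% in Col-0 (738 windows). CHH methylation averaged 0.364% in nrpe1 and 33.1% in Col-0, and 557 windows were at 0 in nrpe1. The 3 contexts were thus low together in nrpe1.

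The CG-kept windows had 78.6% CG in nrpe1 and 80.6% in Col-0, and still held 17.1% CHG methylation in nrpe1, against 46.1% in Col-0. Their CHH methylation was 1.33% in nrpe1 and 22.9% in Col-0. The chosen windows therefore began with more CHH and CHG methylation in Col-0 than the CG-kept windows and with somewhat less CG methylation. Windows that kept at least 75% of their CHH methylation, 30093 in number, had 13.9% CHH in nrpe1 and 13.9% in Col-0. The extent of CG loss did not go with the Col-0 RNA level in any steady order: mean Col-0 levels were 12.9 CPM where nrpe1 had no CG methylation, 14.1 CPM in windows up to 5%, 13.7 CPM from 5% to 15% and 11.0 CPM from 15% to 25%.

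**Figure D1:**
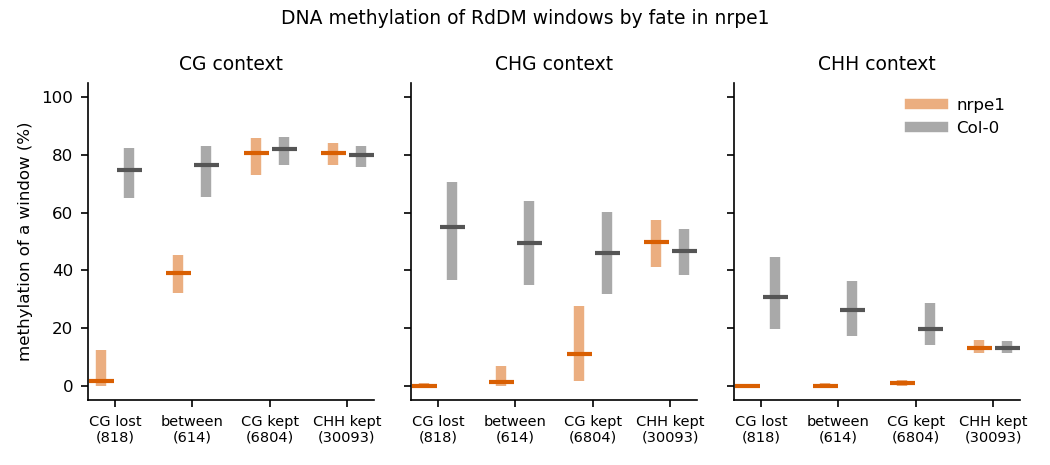
Methylation (%) of RdDM windows in CG, CHG and CHH context, in nrpe1 (left of each pair) and Col-0 (right), for windows that lost CG methylation, lay between, kept CG, or kept CHH methylation, with the number of windows in each class. Horizontal marks are medians and bars span the quartiles over windows of the authors' averages; in the 818 chosen windows the median CG level was 1.59% in nrpe1 and 74.7% in Col-0.

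The difference in CG methylation between nrpe1 and Col-0 shrank with distance from the chosen windows. At windows 300 bp before the chosen ones, mean CG methylation was 29.2% in nrpe1 and 48.1% in Col-0, and 300 bp after them 24.7% in nrpe1 and 44.0% in Col-0. At 600 bp before, the values were 24.1% in nrpe1 and 33.2% in Col-0, and at 1500 bp before they were 23.5% and 23.7% in the same order. At that distance nrpe1 and Col-0 were close, and in nrpe1 the chosen windows sat below their own flanks. The rule set the levels at the window and not beside it, so a dip in nrpe1 and a peak in Col-0 there follow from the choice. CHH methylation in Col-0 fell away faster with distance, with 33.1% at the window, 13.0% at 300 bp before it and 2.88% at 1500 bp before it. RNA also fell away with distance: the mean Col-0 level was 12.9 CPM at the window, 4.95 CPM at 300 bp and 0.910 CPM at 1500 bp before it. Levels around the CG-kept windows fell away likewise. At the same places their CHH methylation in Col-0 was 22.9%, 12.1% and 4.74%, and their Col-0 RNA 8.16, 4.07 and 1.84 CPM.

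**Figure D2:**
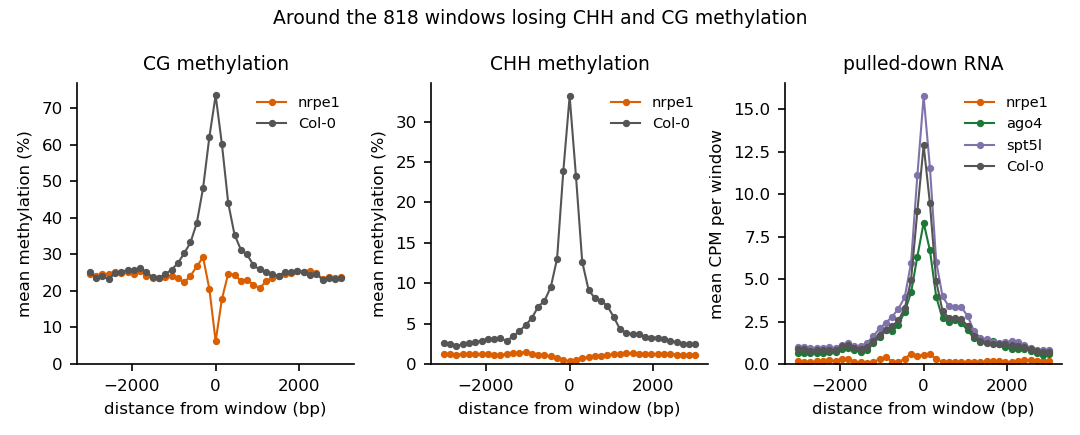
Mean CG methylation (%), CHH methylation (%) and pulled-down RNA (CPM per window) in windows at increasing distance (bp) from the 818 chosen windows, by genotype. CG methylation at the window was 6.23% in nrpe1 and 73.5% in Col-0, and the lines of nrpe1 and Col-0 meet at about 1500 bp.

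Most regions were a single window. Of the 606 regions, 442 held 1 window, 131 held 2, 24 held 3 and 9 held at least 4, and the longest had 7 windows and 1100 bp. Of the 606 windows just before a region, 523 belonged to the RdDM list, 73 were CG-kept windows and 68 lay between the classes. A further 207 had under 10% CHH methylation in Col-0, and 252 lacked a value. On the other side the counts were 512, 65, 54, 217 and 251.

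The chosen windows lay on the chromosome arms and close to genes more often than other RdDM windows did. Of the 818, 205 (25.1%) were in 100-kb blocks with a mean Col-0 CG level of at least 30%, against 70.3% of all RdDM windows, 42.2% of CG-kept windows and 36.5% of the 614 windows between the classes. A further measure was distance to a protein-coding gene: 447 (54.6%) lay outside one but within 1 kb of it, against 18.5% of all RdDM windows, 40.8% of CG-kept windows and 47.2% of those between. Inside protein-coding genes lay 122 (14.9%), against 11.0% of all RdDM windows, 11.0% of CG-kept windows and 14.3% of those between. Inside pseudogenes lay 25 (3.06%), against 37.1% of all RdDM windows, 7.23% of CG-kept windows and 3.58% of those between. Runs of at most 5 consecutive RdDM windows held 36.1% of the chosen windows, 23.0% of all RdDM windows, 30.3% of CG-kept windows and 37.0% of those between. In each of these traits, among the RdDM windows given here, those between the classes came nearest to the chosen ones. Of all windows of the genome 22.8% were in such methylated blocks, 17.9% within 1 kb of a protein-coding gene but outside it, and 57.6% inside one. Inside pseudogenes lay 9.57% of them. The chosen windows were thus near the genome share for methylated blocks and far below it inside protein-coding genes. Each of the 5 chromosomes held a share, between 17.1% (chromosome 2) and 23.7% (chromosome 5). Overlapping windows are not independent, and these shares were not tested.

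Genes with a chosen window in the body or within 1 kb numbered 542 protein-coding genes (99 with the window in the body), 85 pseudogenes, 76 long or other non-coding RNA genes and 23 small or structural RNA genes. Of all 27444 protein-coding genes 1.97% had a chosen window in the body or within 1 kb, so a list of a few genes may well hold none. Of 14 known RdDM targets matched, 10 had an RdDM window in the body or flank, 4 had a CG-kept window and 0 had a chosen one. Of 12 imprinted genes 11 had an RdDM window and 0 a chosen one. Of 27 matched names of the RdDM pathway, of which SPT5L and KTF1 are the same gene, the counts were 13 and 0. The 3 transposon names matched in the gene table belong there to the genes YKT61, ARAC1 and ARAC5, so no listed transposon could be judged.

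VIM3 is of the VIM family of proteins that bind methylated DNA and help to maintain CG methylation. Among 17 listed names for maintenance and removal of methylation, of which SUVH4 and KYP are the same gene, only VIM3 had chosen windows. It had 3 of them in its flank on chromosome 5 from 15840901 to 15841550. CG methylation there averaged 14.9% in nrpe1 and 64.7% in Col-0. Mean levels over the 3 windows were 0.478 and 0.339 CPM in 2 nrpe1 libraries (untagged set and gp3) and 0 in the other 3, against 23.8, 17.0, 13.9, 19.3, 15.5 and 9.71 CPM in Col-0 (untagged set, then gp2 to gp6). In the other genotypes they were 26.0 and 18.8 CPM in spt5l, 18.6 and 12.7 CPM in ago4, 5.64 CPM in suvh2, 13.0 CPM in suvh9 and 0.547 CPM in suvh2/suvh9. The flank of VIM3 thus carried Pol V RNA in ago4 and spt5l at levels within the Col-0 range or just above it.

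Pol V RNA was abundant over the chosen windows in wild type. The median window had 11.1 CPM over the Col-0 libraries (quartiles 6.48 and 16.7), against 5.45 CPM in CG-kept windows and 0.398 CPM in windows that kept CHH methylation. Of the 818 windows, 731 had a read in every Col-0 library. The RdDM list was made in part from RNA of nrpe1 and Col-0 (the sets gp3, gp4 and the one without a tag), so this level is a description.

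The summed level over the 818 windows was below every Col-0 library in each library of nrpe1, dms5-1, drd3-3, drd1, dms3 and suvh2/suvh9. It was 839, 550, 396, 204 and 244 CPM in nrpe1 (untagged set, gp3, gp4, gp5, gp6), against 14439, 10339.8, 8936, 13577, 8884 and 6994 CPM in Col-0 (untagged set, then gp2 to gp6). Without the libraries that were used for the class lists, the log2 ratio of nrpe1 (2 libraries) to Col-0 (3) was −5.27 ± 0.209 (SE), 38.7-fold lower. The exact two-sided permutation p was 0.1, the smallest that this number of libraries allows.

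**Figure D3:**
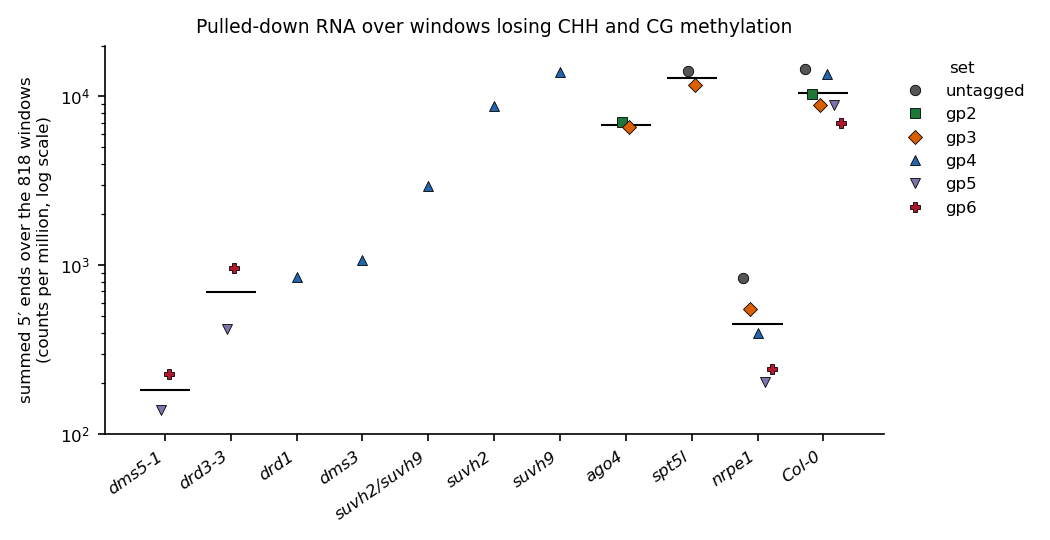
Summed CPM over the 818 windows (log axis) for each library, by genotype, with Col-0 at the right; symbols give the set, and bars are means of genotypes with more than 1 library. The libraries of nrpe1, dms5-1, drd3-3, drd1 and dms3 lie at or under 1075 CPM, while suvh2, suvh9, ago4 and spt5l lie within or close to the Col-0 range of 6994 to 14439 CPM.

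Single windows moved with the sum. In the fit on nrpe1 of gp5 and gp6 and Col-0 of gp2, gp5 and gp6, 525 of the 818 windows passed the filter on low counts, and 521 of them were called lower in nrpe1 while 0 were called higher (edgeR quasi-likelihood F test, Benjamini-Hochberg adjusted p under 0.05). With nrpe1 near 0, a window passed this filter through its Col-0 counts, so the count is a description. Of all windows tested there 77.9% were lower and 4.32% higher, and of the RdDM windows 96.6%. The largest drop named by the rule, on chromosome 4 from 9913951 to 9914150 between the pseudogene AT4G17820 and AT4G17830, had no read in both nrpe1 libraries, against 70.2, 38.0 and 23.7 CPM in Col-0 (gp2, gp5, gp6). It was at least 34.3-fold lower, with the floor set at 3 counts over the group. The other 4 named windows, among them 1 beside SGP2 and 1 in AT1G05030, were at least 24.4-fold to 28.4-fold lower.

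What remained in nrpe1 was concentrated in few windows. Of 4570 nrpe1 reads in the chosen windows, 1569 (34.3%) fell in 1 window and 55.3% in 6, which held 2.5% of the Col-0 reads. No nrpe1 read was found in 162 windows (19.8%), and 553 had 1 to 5. The window with most reads lies in the long non-coding RNA gene AT5G08795, on chromosome 5 from 23431351 to 23431550, with 156, 269, 216, 31.3 and 38.1 CPM in nrpe1 and 64.5, 62.8, 225, 155, 44.3 and 43.7 CPM in Col-0. This window was as high in nrpe1 as in Col-0. A window in TAS3, a precursor of small RNAs that act on auxin response factor genes, is another of the 6, with 20.1, 4.41, 8.73, 6.00 and 4.76 CPM in nrpe1 and 60.6, 46.9, 8.56, 58.2, 31.7 and 38.2 CPM in Col-0.

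The mutants dms5-1 and drd3-3 were low as well. The summed level was 139 and 227 CPM in dms5-1 (gp5, gp6), and the log2 ratio to the 6 Col-0 libraries was −5.84 ± 0.391 (SE), 57.4-fold lower. In drd3-3 it was 417 and 970 CPM, a log2 ratio of −4.003 ± 0.630, 16.0-fold lower. Both reached p = 0.0357 by exact two-sided permutation, the lowest p that 28 splits allow. The adjusted p was 0.116 over 13 such tests, and no mutant library overlapped with Col-0. Some of these Col-0 libraries, and of the nrpe1 libraries compared below, had also served to make the class lists. The windows were thus not chosen independently of these levels, and the p-values are descriptions. Without Col-0 gp3 the ratios were −5.88 and −4.04. Set against nrpe1, the log2 ratio was −1.14 in dms5-1 (exact permutation p = 0.19) and 0.70 in drd3-3 (exact permutation p = 0.381). Against nrpe1 of the same set, the log2 ratio was −0.56 (gp5) and −0.10 (gp6) in dms5-1 and 1.03 (gp5) and 1.99 (gp6) in drd3-3.

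Of the 746 chosen windows that passed the filter in the fit of 19 libraries, 739 were lower in dms5-1 than in Col-0 and 499 lower in drd3-3, and 0 were higher in both (edgeR, adjusted p under 0.05). Here too windows passed the filter through the genotypes with high counts, and both counts are descriptions. Of all windows tested, 76.7% were lower and 2.23% higher in dms5-1, and 40.8% lower and 5.44% higher in drd3-3, and of the RdDM windows 94.7% were lower in dms5-1 and 51.1% in drd3-3. The drd3-3 count rests on both of its libraries, since it was 0 without either. The window between CYP71B23 and CYP71B3, a pair of cytochrome P450 genes, on chromosome 3 from 9595501 to 9595700, had 0 CPM in both dms5-1 libraries, against 73.8, 48.8, 0.408, 70.3, 40.9 and 29.1 CPM in Col-0, and was at least 30.7-fold lower. Col-0 gp3 was as low as the mutants at this window. For drd3-3 the rule named 5 windows without a read in either library, such as those beside RUS4 (at least 17.0-fold lower) and RDR1, an RNA-dependent RNA polymerase gene (at least 15.5-fold).

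Between drd3-3 and nrpe1 5 of the 746 windows were higher in drd3-3 and 0 lower (edgeR, adjusted p under 0.05), where 2.43% of all windows tested were higher. An unadjusted p under 0.05 was found in 57 of the 746 and in 4711 of all 36843 windows tested. Near CRK33, a receptor-like kinase gene, on chromosome 4 from 6977701 to 6977900, drd3-3 had 7.63 and 5.67 CPM and nrpe1 had 0.666 CPM in gp5 and 0 in its other 4 libraries. The log2 ratio was 5.55 ± 1.03 (SE), with an adjusted p of 0.00268 (edgeR), and drd1 had 5.22 CPM and dms3 3.25 CPM. Near AT5G40300 drd3-3 had 8.91 and 2.27 CPM, drd1 5.92 CPM and dms3 6.09 CPM, against 0.956, 0.339, 0, 0 and 0 CPM in nrpe1. At these windows drd3-3, drd1 and dms3 were all above every nrpe1 library. The drd3-3 values rest on 11 reads near CRK33 and 9 near AT5G40300, and both windows were named for being higher in drd3-3. The call near AT5G40300 ended in 7 of 25 other settings and that near CRK33 in 1. Between dms5-1 and nrpe1 edgeR called 0 of 746 (0% of all windows tested), and DESeq2 also called 0. An unadjusted p under 0.05 was found in 16 of the 746 and in 1399 of all 36843 windows tested (edgeR).

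The single libraries of drd1, dms3 and the SUVH mutants have no replicate check. Scaled to the windows that Pol V does not transcribe, without ribosomal DNA, drd1 kept 2.57% of the Col-0 level of its set gp4 over the chosen windows and 10.3% over the CG-kept windows. For dms3 the values were 3.70% and 12.1%. The mutant suvh2 kept 39.8% over the chosen windows and 48.7% over the CG-kept windows, suvh9 100.1% and 109%, and suvh2/suvh9 9.94% and 18.7%. In the double mutant the chosen windows were lower than in either single mutant. In nrpe1 of gp4 these shares were 1.44% over the chosen and 7.32% over the CG-kept windows. Leaving out windows with at least 20 reads over nrpe1 (background windows) lowered them to 1.06% and 2.17% in drd1, 1.87% and 3.04% in dms3, 38.8% and 30.2% in suvh2, and 8.39% and 11.4% in suvh2/suvh9. The order of the chosen and the CG-kept windows in suvh2 thus turned with the background windows, and most of the gap between them in drd1 and dms3 went with these windows. Under library totals the shares over the chosen windows were 6.25% in drd1, 7.92% in dms3, 64.6% in suvh2, 102% in suvh9 and 21.6% in suvh2/suvh9.

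Single windows departed from the sum in the SUVH mutants. The 5 windows beside ABCG41, a transporter gene, on chromosome 4 between 8670301 and 8671250, averaged 4.69 CPM in suvh2, 0.065 CPM in suvh9 and 1.89 CPM in suvh2/suvh9, against 9.45 CPM in Col-0 of the same set. The window in RPS28, a ribosomal protein gene, on chromosome 5 from 25668451 to 25668650, had 58.8 CPM in suvh2, 0.976 CPM in suvh9 and 0 in suvh2/suvh9, against 42.8 CPM in Col-0 gp4. These 2 places were low in suvh9 and less so, or not, in suvh2. The opposite held for the flank of VIM3 given above and for the window near AT4G02420, on chromosome 4 from 1063801 to 1064000, with 0 in suvh2, 8.78 CPM in suvh9 and 2.05 CPM in suvh2/suvh9, against 23.8 CPM in Col-0 gp4.

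In ago4 and spt5l the summed level did not differ from that of Col-0 beyond the spread between libraries. It was 7046 and 6549.8 CPM in ago4 (gp2, gp3), a log2 ratio to Col-0 of −0.59 ± 0.171 (SE; exact two-sided permutation p = 0.107, adjusted p = 0.174). In spt5l it was 14049 and 11711 CPM (untagged set, gp3), a log2 ratio of 0.33 ± 0.209 (exact permutation p = 0.357). The Col-0 group again held libraries that had served for the class lists, so both p-values are descriptions. Without Col-0 gp3 the ratios were −0.62 in ago4 and 0.29 in spt5l. Within its set spt5l had a log2 ratio of −0.04 in the untagged set and 0.39 in gp3, and ago4 one of −0.55 in gp2 and −0.45 in gp3. Scaled to windows that Pol V does not transcribe, ago4 kept 67.1% and 63.0% of the Col-0 level of its sets and spt5l 70.9% and 108%.

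Set against the CG-kept windows, which needs no scaling of libraries, the chosen windows had a log2 ratio to Col-0 of −0.30 ± 0.122 in ago4 (exact permutation p = 0.0714, adjusted p = 0.155) and 0.13 ± 0.0795 in spt5l (exact permutation p = 0.429). For ago4 the ratio was −0.37 without Col-0 gp3 (exact permutation p = 0.0476, the lowest p that 21 splits allow). Set against all other RdDM windows, it was −0.14 ± 0.0613 in ago4 (exact permutation p = 0.179) and 0.22 ± 0.0650 in spt5l (exact permutation p = 0.0714, adjusted p = 0.155). None of these differences passed the adjustment. These p-values too are descriptions, since Col-0 libraries that had served for the class lists were among the reference.

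Single windows differed from Col-0 in both mutants. In ago4 114 of the 746 tested windows were lower than in Col-0 and 5 higher, against 8.54% lower and 1.86% higher of all windows tested, and 10.2% lower of the RdDM windows (edgeR, adjusted p under 0.05). In spt5l 76 were lower and 6 higher, against 3.81% lower and 0.722% higher of all windows tested, and 4.76% lower of the RdDM windows. Among 4692 CG-kept windows tested, 225 were lower in ago4 and 49 in spt5l. Windows near 0 in a mutant passed the filter through the genotypes with high counts, so these counts are descriptions. The median Col-0 level was 11.1 CPM in the chosen and 5.45 CPM in the CG-kept windows, so their shares called are not directly comparable. Without Col-0 gp3, ago4 had 172 lower and 56 higher and spt5l 110 lower and 19 higher of 732 chosen windows tested. Of all windows tested in that fit 13.9% were lower and 6.43% higher in ago4 and 6.90% lower and 2.30% higher in spt5l. With the set as block, 0 were higher in ago4 and 2 in spt5l, against 1.26% and 0.456% of all windows tested. With a single library of either mutant left, fewer chosen windows were called lower than with both.

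The median log2 change over the tested chosen windows was −0.26 in ago4 and 0.09 in spt5l, against −0.03 in ago4 and −0.05 in spt5l over all windows tested. Under library totals the medians over all windows moved to −0.53 in ago4 and 0.06 in spt5l, and those over the chosen windows to −0.78 in ago4 and 0.20 in spt5l. Scaled to windows that Pol V does not transcribe, they were −0.79 in ago4 and −0.16 in spt5l over all windows, and −1.06 in ago4 and −0.04 in spt5l over the chosen ones. The median over the chosen windows in spt5l thus had no fixed sign. In the interval of chromosome 2 from 4 to 12 Mb, 14 of 65 tested chosen windows (21.5%) were lower in ago4, and elsewhere 100 of 681 (14.7%). Of all RdDM windows tested, 29.8% were lower in ago4 inside this interval and 7.94% elsewhere.

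Of the 5 windows named as lower in ago4, 3 were present in spt5l. On chromosome 2 from 5865751 to 5865950, beside the pseudogenes AT2G13970 and AT2G13975, ago4 had no read in both libraries, against 37.9, 19.6, 37.7, 35.5, 23.6 and 20.02 CPM in Col-0, while spt5l had 59.4 and 38.5 CPM. The window was at least 109-fold lower in ago4 (adjusted p = 0.000348, edgeR). Here all 6 Col-0 libraries were high, and spt5l reached or passed the highest of them. The window in AT2G21100, on chromosome 2 from 9048451 to 9048650, had 0.287 and 0 CPM in ago4 and 32.3 and 35.3 CPM in spt5l, against 35.9, 24.3, 0.204, 27.1, 13.8 and 20.02 CPM in Col-0 (adjusted p = 0.00442 for ago4, edgeR). Its pooled ago4 level was 118-fold lower than that of Col-0, with a counting interval of 32.5-fold to 979-fold. The window between AT5G01160 and AT5G01170 likewise had no read in ago4 and 11.998 and 11.07 CPM in spt5l, and was at least 40.6-fold lower in ago4 than in Col-0. The window near HCF136, an assembly factor gene of photosystem II, was at least 35.8-fold lower in ago4 and had 1.55 and 2.14 CPM in spt5l. The window between AT1G22480 and AT1G22490, on chromosome 1 from 7936501 to 7936700, was low in both mutants, with 0.287 and 0 CPM in ago4 and 0 and 0.583 CPM in spt5l, against 23.2, 19.1, 0.611, 24.9, 16.7 and 6.37 CPM in Col-0. Its pooled ago4 level was 88.3-fold lower than that of Col-0 (counting interval 24.2-fold to 732-fold). In the last 4 of these windows Col-0 gp3 had 1.63 CPM or less.

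Other windows were near 0 in spt5l. On chromosome 4 from 13770151 to 13770350, between AT4G27585 and AT4G27590, spt5l had 0.194 and 0 CPM and ago4 20.6 and 12.7 CPM, against 30.6, 18.4, 10.2, 28.2, 22.5 and 16.4 CPM in Col-0. This rests on 1 read in spt5l, a pooled level 221-fold lower than in Col-0 with a counting interval of 39.4-fold to 8735-fold, and the window had an adjusted p of 0.000353 in spt5l (edgeR) and 0.955 in ago4. The window in the microRNA gene MIR8173, on chromosome 5 from 7478401 to 7478600, had no spt5l read and was at least 43.2-fold lower than in Col-0, with 23.7, 16.9, 0.408, 14.3, 12.7 and 7.28 CPM in Col-0. It was low outside Col-0 in every genotype, with at most 0.575 CPM in any mutant library. The windows near AT4G02420 and HVT1 were at least 38.5-fold and 20.3-fold lower in spt5l.

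Some windows were low in both mutants. In SUB1, a gene known from light signalling, on chromosome 4 from 5617951 to 5618150, ago4 had 1.72 and 1.15 CPM and spt5l 4.64 and 3.11 CPM, against 81.3, 57.2, 1.43, 80.2, 42.6 and 30.04 CPM in Col-0. The log2 ratio was −4.47 ± 1.15 in ago4 (adjusted p = 0.0115, edgeR) and −3.70 ± 1.07 in spt5l (adjusted p = 0.0457, edgeR). Col-0 gp3 again lay with the mutants and not with the other 5 Col-0 libraries, whose lowest value was 30.04 CPM. The window in RPS28 had 0.575 and 0.231 CPM in ago4 and 0.194 and 0.388 CPM in spt5l, against 40.9, 37.5, 7.13, 42.8, 25.3 and 20.9 CPM in Col-0, with adjusted p of 0.000427 in ago4 and 0.000435 in spt5l (edgeR). The pooled spt5l level there was 102.7-fold lower than that of Col-0, with a counting interval of 34.96-fold to 499-fold.

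With all 6 Col-0 libraries in the fit, gains were fewer than losses in both mutants. Between AGL30, a MADS-box gene, and MED8, a subunit gene of the Mediator complex, the window on chromosome 2 from 904801 to 905000 had 35.2 and 29.5 CPM in spt5l, against 7.08, 1.47, 5.71, 7.69, 2.30 and 5.46 CPM in Col-0. The log2 ratio was 2.59 ± 0.57 (SE; adjusted p = 0.0072, edgeR). The chosen window 300 bp before it went the other way, with 1.74 and 1.55 CPM in spt5l, against 25.7, 20.6, 0, 26.4, 10.4 and 7.28 CPM in Col-0. That window was not called lower in spt5l by edgeR, and Col-0 gp3 lay below both spt5l libraries there. Near UGT76D1, a glucosyltransferase gene, the window on chromosome 2 from 11266051 to 11266250 had 42.4 and 32.8 CPM in spt5l and 1.15 and 1.39 CPM in ago4, against 2.73 to 12.8 CPM in Col-0. Its call in spt5l ended when libraries were scaled to windows that Pol V does not transcribe (adjusted p = 0.0749, edgeR). The window near AT4G05380 had 21.3 and 17.3 CPM in spt5l and 0.431 and 0.231 CPM in ago4, against 1.22 to 5.15 CPM in Col-0, and was called higher in spt5l (adjusted p = 0.00206, edgeR) and lower in ago4 (adjusted p = 0.00959, edgeR). At the windows near UGT76D1 and AT4G05380 spt5l lay above, and ago4 below, every Col-0 library.

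For ago4 the rule named 4 higher windows, and Col-0 gp3 was the highest Col-0 library at each. In AT5G55565, on chromosome 5 from 22512451 to 22512650, ago4 had 21.8 and 33.7 CPM and Col-0 gp3 20.4 CPM, against 3.64 to 7.97 CPM in the other 5 Col-0 libraries. The log2 ratio to all Col-0 was 2.12 ± 0.57 (SE; adjusted p = 0.0188, edgeR). Near TGG2, a myrosinase gene, on chromosome 5 from 9069751 to 9069950, ago4 had 17.7 and 10.9 CPM, against 7.26, 3.43, 8.76, 3.66, 2.88 and 3.64 CPM in Col-0 (adjusted p = 0.0116, edgeR). These calls end when libraries are scaled to windows that Pol V does not transcribe, where 0 of the 746 windows were higher in ago4, against 311 of all 36843 tested.

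**Figure D4:**
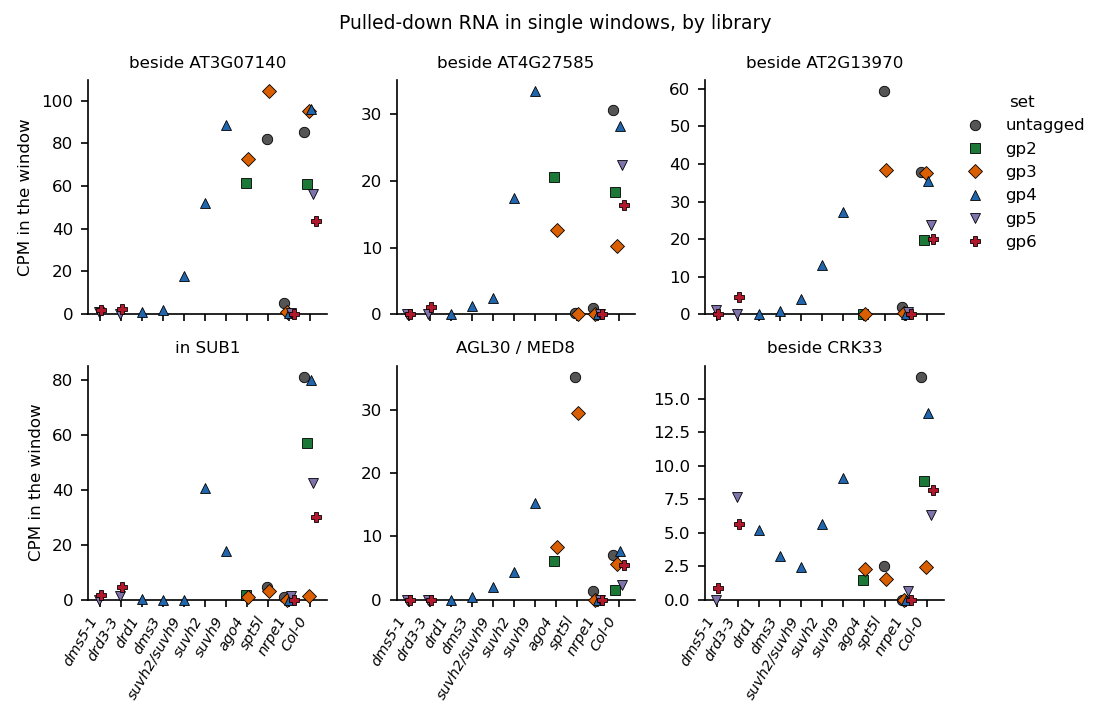
Levels (CPM) in 6 single windows for every library, by genotype, with Col-0 at the right and symbols for the set. The window beside AT3G07140 was present in ago4, spt5l and Col-0, that beside AT4G27585 was near 0 in spt5l, that beside AT2G13970 was at 0 in ago4, that in SUB1 was low in both and in Col-0 gp3, that between AGL30 and MED8 was highest in spt5l at 35.2 and 29.5 CPM, and that beside CRK33 kept signal in drd3-3, drd1 and dms3.

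The window with the highest Col-0 level outside the background windows lay near AT3G07140 and passed the test in neither ago4 nor spt5l. On chromosome 3 from 2260801 to 2261000, ago4 had 61.4 and 72.7 CPM and spt5l 82.2 and 104 CPM, against 85.4, 60.8, 94.96, 96.3, 56.4 and 43.7 CPM in Col-0 (adjusted p = 0.908 for ago4 and 0.979 for spt5l, edgeR). Its CG methylation was 0.962% in nrpe1 and 90.02% in Col-0. The longest region, 7 windows on chromosome 3 from 16240801 to 16241900 in AT3G44703, was present in both, with a mean of 12.4 and 10.1 CPM in ago4 and 14.2 and 9.63 CPM in spt5l, against 9.82, 6.69, 15.4, 9.41, 5.84 and 5.59 CPM in Col-0. Of its windows 0 were called in ago4 and 0 in spt5l. The 4 next regions by number of windows also had 0 called in both: beside OXS2, between OTP51 and AT2G15830, between CYCD6;1 and PETC, and beside AT1G33850. Without a call, spt5l still averaged above every Col-0 library between CYCD6;1 and PETC (34.9 and 32.5 CPM, against 5.86 to 16.4 CPM). The same held between OTP51 and AT2G15830 (29.0 and 34.0 CPM, against 12.5 to 24.7 CPM). Beside OXS2 and AT1G33850 spt5l gp3 lay within the Col-0 range.

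Groups of windows at 1 gene set ago4 apart from Col-0 in some places and not in others. The 5 windows in and beside AT2G14265, on chromosome 2, averaged 2.18 and 1.75 CPM in ago4 and 10.6 and 9.52 CPM in spt5l, against 9.99, 7.11, 21.3, 11.6, 7.72 and 5.83 CPM in Col-0, and 1 of the 5 was called lower in ago4. The 4 windows beside AT5G58880 averaged 31.6 and 31.9 CPM in ago4 and 19.9 and 12.4 CPM in spt5l, against 16.0, 13.6, 34.2, 15.1, 14.0 and 9.56 CPM in Col-0, with 0 called. In the first group Col-0 gp3 was the highest Col-0 library while ago4 was lower than every Col-0 library. In the second, Col-0 gp3 was above both ago4 libraries, and ago4 was above the other 5.

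How often a window was nearly lost was then counted per library, in a measure chosen after the data were seen. Libraries were scaled to their CG-kept windows, and a window counted as low when it had under 25% of the mean of the other Col-0 libraries and at least 20 counts would be seen at that mean. Of the chosen windows, 142 of 721 (19.7%) were low in ago4 gp2, 144 windows (23.0%) in ago4 gp3, 104 of 746 (13.9%) in spt5l of the untagged set and 92 of 712 (12.9%) in spt5l gp3. In Col-0, 175 of 722 (24.2%) were low in gp3 and 0 in each of the other 5 libraries, of 60 to 757 windows. Of the CG-kept windows, 5.34% and 7.97% were low in ago4, 1.78% and 2.24% in spt5l, 4.11% in Col-0 gp3 and at most 1.01% in the other Col-0 libraries. In ago4, spt5l and Col-0 gp3 alike, low windows were a larger share of the chosen windows than of the CG-kept ones.

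**Figure D5:**
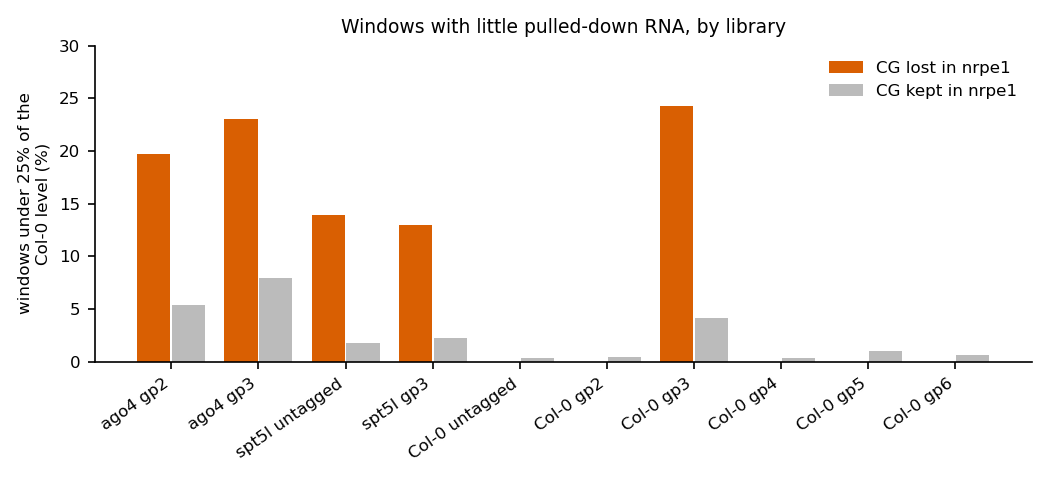
Share of windows (%) with under 25% of the mean level of the other Col-0 libraries, in each ago4, spt5l and Col-0 library, for windows that lost CG methylation in nrpe1 (orange) and windows that kept it (grey). The share among windows that lost it was 19.7% and 23.0% in ago4, 13.9% and 12.9% in spt5l and 24.2% in Col-0 gp3, and 0 in the other 5 Col-0 libraries.

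With all 6 Col-0 libraries, the share of low windows among the chosen ones was higher than in Col-0 by 17.3 percentage points in ago4 and 9.39 in spt5l (exact permutation p = 0.107 each, adjusted p = 0.107). Less the share of CG-kept windows, the differences were 11.8 points in ago4 and 8.51 in spt5l (exact permutation p = 0.107 each). Without Col-0 gp3 they were 23.0 and 15.9 points in ago4 and 14.1 and 12.1 points in spt5l, each at p = 0.0476 by exact permutation, the lowest p that 21 splits allow, and an adjusted p of 0.0476 over 4 tests. The Col-0 libraries set the reference for low windows and also formed a permuted group, with no new reference for each split. A library of another genotype could score higher for that reason, so these p-values are descriptions. They also depend on Col-0 gp3, which itself had a higher share of low windows than any ago4 or spt5l library. Of the SUVH mutants, suvh2 had 14 of 441 (3.17%) low, suvh9 40 of 665 (6.02%) and suvh2/suvh9 14 of 43 (32.6%). The double mutant had 32 of 61 (52.5%) when Col-0 gp3 is left out of the mean. Of the CG-kept windows, 4.51% were low in suvh2, 1.91% in suvh9 and 3.36% in suvh2/suvh9, or 11.7% in the last without Col-0 gp3. In suvh2, unlike ago4 and spt5l, the chosen windows thus had the smaller share.

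Where windows were low in a library, others were high. Over 200% of the Col-0 mean lay 9.29% and 6.24% of the chosen windows in ago4, 7.37% and 12.4% in spt5l, and 10.4% in Col-0 gp3. The pattern of levels was repeatable between libraries of a genotype: across the 818 windows r was 0.93 between both ago4 libraries and 0.96 between both spt5l libraries. Between ago4 and spt5l it was 0.58 to 0.60, between ago4 and the 5 Col-0 libraries other than gp3 0.31 to 0.40, and between spt5l and those 5 0.49 to 0.54. Across the 6804 CG-kept windows the same values were 0.59 to 0.70 for ago4 and 0.71 to 0.86 for spt5l. These correlations describe levels in the same windows and were not tested.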

How the data were processed

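IPARE reads were deposited by the authors as whole-number counts per 200-bp window, together with lists of windows by Pol V class, and the window table also holds methylation fractions averaged by the authors over the bisulfite libraries of each genotype, per the file headers. The submitters' processing notes name the build TAIR10 and the tools Bismark, Bowtie2, cutadapt and UMI-tools without roles or versions. Coordinates are those of the window table, and gene names and neighbours come from the RefSeq gene table, used without strand. The chosen windows, gene lists and tests were fixed with earlier results of these data known, and the counting of low windows was added after the data were seen.

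The test of window counts was edgeR 4.0.16's quasi-likelihood F test (scaling by TMM, filterByExpr minima 10 and 15, Benjamini-Hochberg adjustment over all windows, threshold 0.05) in R 4.3.3, on the 19 libraries of the 6 genotypes with replicates, with DESeq2 1.42.0 as an alternative. Summed levels were tested by exact permutation of libraries. Of these, the edgeR test was run on simulated counts, with the same spread for all windows and no differences between sets. No pair of libraries was a duplicate by its counts. Deviations from the group means correlated with Col-0 of the same set at 0.10 to 0.39 in nrpe1, 0.20 to 0.40 in spt5l and 0.28 to 0.40 in ago4. The values were −0.0173 and 5.48e-05 in dms5-1 and −0.0744 and −0.00501 in drd3-3 (27751 windows). With Col-0 of another set they reached 0.17 in nrpe1, 0.24 in spt5l and 0.08 in ago4. For nrpe1 gp6 the value was 0.128 with Col-0 gp5 and 0.103 with Col-0 gp6. In genotypes with 2 libraries the deviations mirror each other, so their 2 values are not independent. Libraries of nrpe1, spt5l and ago4 were read as paired by set, and those of dms5-1 and drd3-3 were not. The main permutation and edgeR tests used no pairs, so their p-values ignore the sets. Except for nrpe1 against Col-0, these tests also included Col-0 or nrpe1 libraries that had served for the class lists. The same holds for their other settings with all Col-0 libraries, so such p-values for the chosen windows are descriptions. Sets entered only in values within a set, in the naming of windows and in the settings with the set as block. All of these were also run for dms5-1 and drd3-3. Intervals and floors cover counting error only. Named windows were those in the 5 regions with most chosen windows, the 5 with the highest Col-0 level, up to 5 per contrast and direction with the largest change that held in each library against its set, and those of genes with most chosen windows or in the gene lists.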

Additional observations from a re-analysis of the deposited data

Results flagged for a closer look

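Over 71 checks of groups of libraries for a single one far from the others, 10 were positive. Most checks were on windows and groups picked from these data, and some overlap, so no rate by chance can be set beside this number. Most concern Col-0 gp3. Its share of low windows among the chosen ones, 24.2%, lay far above the other 5 Col-0 libraries, as did its share among CG-kept windows, 4.11%, and the difference between both, 20.1 percentage points. It was also the far library in Col-0 at the AT5G55565 window (20.4 CPM), at the window on chromosome 5 from 23774401 to 23774600 beside ftsh9 (58.1 CPM), and for the mean over the windows of AT5G55565 (41.7 CPM), AT2G14265 (21.3 CPM), AT1G33850 (16.9 CPM) and AT5G58880 (34.2 CPM). Of 62 windows and groups checked, 7 were positive, and 6 of these were Col-0 gp3. The other was Col-0 gp6 at the window between AT3G22520 and AT3G22540, which had 3.64 CPM there, below the remaining Col-0 libraries.

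The summed level in spt5l went opposite ways in its sets, with a log2 ratio to Col-0 of −0.0395 in the untagged set and 0.39 in gp3. This difference was not tested.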

How the results depend on the processing

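The median change over the chosen windows in spt5l turned from 0.09 to −0.04 when scaled to windows without Pol V and to −0.06 with the set as block; no summed level or named window turned round. Leaving out each library in turn, or the background windows, the log2 ratio of the summed level lay between −5.84 and −5.14 in nrpe1, −0.70 and −0.49 in ago4, 0.20 and 0.46 in spt5l, −6.57 and −5.49 in dms5-1 (−6.20 without gp6) and −4.61 and −3.39 in drd3-3. Against nrpe1 it lay between −1.49 and −0.73 in dms5-1 and 0.10 and 1.47 in drd3-3. Against other RdDM windows it lay between −0.18 and −0.10 in ago4, 0.17 and 0.26 in spt5l (0.24 without Col-0 of the untagged set or gp4), −2.002 and −0.60 in dms5-1 (−1.90 without gp5) and −2.51 and −1.11 in drd3-3, and against CG-kept windows between −0.40 and −0.21 in ago4 (−0.37 without Col-0 gp3) and 0.06 and 0.17 in spt5l. The excess of low windows lay between 15.7 and 23.0 points in ago4 and 8.29 and 14.1 in spt5l, or 10.6 to 15.9 and 7.47 to 12.1 less CG-kept windows. The counts of called windows that follow stand without shares of all windows and describe only how far leaving out a library moved them. Counts of lower windows lay between 21 and 172 in ago4, 2 and 110 in spt5l, 648 and 766 in dms5-1, 0 and 639 in drd3-3 and 339 and 597 in nrpe1, those of higher windows between 0 and 56 in ago4 (8 without nrpe1 of the untagged set) and 0 and 19 in spt5l (14 without the same library), and drd3-3 over nrpe1 between 1 and 15 (8 without Col-0 gp3), with 0 throughout for dms5-1.

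With the set as replicate block, which leaves 2 pairs and whose libraries did not deviate together in dms5-1 and drd3-3, the log2 ratios were −5.47 in dms5-1 and −3.63 in drd3-3, or −1.88 and −1.74 against other RdDM windows (exact permutation p = 0.5 each, the smallest it allows). There drd3-3 had 295 lower windows of 746, against 17.9% of all windows tested. Those higher numbered 0 in ago4 and 2 in spt5l, against 1.26% and 0.456% of all windows tested. With windows capped, spt5l against other RdDM windows was 0.21 and the summed level in ago4 −0.35 (exact permutation p = 0.0357 each), and spt5l was 0.22 without background windows. Higher windows in spt5l numbered 13 under library totals, 3 scaled to windows without Pol V, 11 with a looser filter and 20 with 2 genotypes in the fit. In ago4 they numbered 1 under library totals and 0 scaled to windows without Pol V, with DESeq2 size factors or with DESeq2. Of all 36843 windows tested, 324 were higher in spt5l and 410 in ago4 under library totals. Scaled to windows without Pol V, 123 of them were higher in spt5l and 311 in ago4. At that scaling 172 of the 746 chosen windows were lower in ago4, against 4438 of all windows tested, and the excess of low windows was 23.3 points. The other counts here stand without a share of all windows. In drd3-3 over nrpe1 11 were higher with DESeq2, 3 with the looser filter and 0 with 2 genotypes. Under library totals nrpe1 kept 4.13%, ago4 70.7%, drd1 6.25%, dms3 7.92%, suvh2 64.6%, suvh9 102% and suvh2/suvh9 21.6%. Within 500 bp of protein-coding genes lay 34.96%. The causes were not tested. The low depth of gp5 and gp6 limits what single windows show in dms5-1 and drd3-3.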
